A study of Mus musculus with 6 samples.

Results

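The 10 genes described here are the mouse Ugt2 and Ugt3 UDP-glycosyltransferases Ugt2a3, Ugt2b1, Ugt2b5, Ugt2b34, Ugt2b35, Ugt2b36, Ugt2b37, Ugt2b38, Ugt3a1 and Ugt3a2. They were picked out by matching their symbols to the Ensembl identifiers of the count tables, and they are 10 of the 37991 genes listed there. RNA was sequenced from liver and liver tumour of mice that were 35 weeks old and had eaten a high-fat diet for 27 weeks. All mice carried TgAlbCre, a transgene that expresses Cre recombinase from the albumin promoter, which is active in hepatocytes. Control livers carried this transgene alone. KAP1-deleted livers came from TgAlbCreKap1lox mice, in which Cre also inactivates Kap1 (Trim28), the gene of a co-repressor of transcription, and the tumours were primary tumours of the same genotype. Each of the 3 groups held 2 libraries, 1 from each of 2 mice, and by the mouse codes tumour 1 and KAP1-deleted liver 1 came from 1 mouse, as did tumour 2 and KAP1-deleted liver 2. Other cells of the liver keep Kap1 in this model, and no tumour of a Kap1-competent mouse was analysed here, so tumour and deletion cannot be told apart against control liver.

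UDP-glucuronosyltransferases sit in the membrane of the endoplasmic reticulum and join glucuronic acid, taken from UDP-glucuronate, to steroids, bile acids, fatty acids, bilirubin and drugs. The product is more soluble and leaves the hepatocyte through transporters to bile or blood. Ugt2b enzymes are abundant in hepatocytes and are known for steroid hormones, bile acids and drugs, and human UGT2A3 is known to act on bile acids. The Ugt3 enzymes belong to the same superfamily but use other sugar donors: human UGT3A1 transfers N-acetylglucosamine, and human UGT3A2 transfers glucose or xylose.

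Several of these genes are near copies of each other, which bears on how far a read can be given to 1 of them. Short stretches of the GENCODE M21 transcripts (GRCm38) show this for Ugt2b5 and its closest relatives. The first set covers coding bases 220 to 309, counted from the start codon, and capitals mark a base that differs from Ugt2b5.
Ugt2b5: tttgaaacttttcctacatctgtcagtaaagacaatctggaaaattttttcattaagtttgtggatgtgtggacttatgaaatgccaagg
Ugt2b38: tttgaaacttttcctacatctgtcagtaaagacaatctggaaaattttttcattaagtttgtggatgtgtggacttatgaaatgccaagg
Ugt2b37: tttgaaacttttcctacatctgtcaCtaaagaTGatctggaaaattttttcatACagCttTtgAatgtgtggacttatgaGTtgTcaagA
Ugt2b36: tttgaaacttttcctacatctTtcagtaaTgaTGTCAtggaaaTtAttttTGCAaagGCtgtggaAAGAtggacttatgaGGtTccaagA

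Ugt2b38 is identical to Ugt2b5 over that stretch, and the first 443 coding bases of both are the same. Ugt2b37 differs at 12 of the 90 bases and Ugt2b36 at 23. The second set covers coding bases 1422 to 1511, near the stop codon, again with capitals where a base differs from Ugt2b5. It is shown because Ugt2b38 can be told from Ugt2b5 there, at 10 of the 90 bases, while Ugt2b37 differs at 5 and Ugt2b36 at 12.
Ugt2b5: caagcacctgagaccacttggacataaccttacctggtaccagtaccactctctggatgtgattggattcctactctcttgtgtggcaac
Ugt2b38: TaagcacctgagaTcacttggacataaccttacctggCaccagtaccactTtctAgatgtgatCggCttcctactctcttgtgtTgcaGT
Ugt2b37: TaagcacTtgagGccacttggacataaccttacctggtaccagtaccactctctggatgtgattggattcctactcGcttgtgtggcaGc
Ugt2b36: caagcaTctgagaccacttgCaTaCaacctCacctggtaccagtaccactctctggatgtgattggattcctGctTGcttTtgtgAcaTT

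Over the whole coding sequence of 1593 bases, Ugt2b38 differs from Ugt2b5 at 47 positions (97.0% identity), Ugt2b37 at 85 (94.7%) and Ugt2b36 at 184 (88.4%). The Ugt3a pair is a second case. Ugt3a2 differs from Ugt3a1 at 106 of 1572 coding bases (93.3% identity). The stretch of coding bases 209 to 298, where the pair differs most, is given with capitals where Ugt3a2 differs from Ugt3a1.
Ugt3a1: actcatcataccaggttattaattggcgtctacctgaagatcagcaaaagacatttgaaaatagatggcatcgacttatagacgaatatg
Ugt3a2: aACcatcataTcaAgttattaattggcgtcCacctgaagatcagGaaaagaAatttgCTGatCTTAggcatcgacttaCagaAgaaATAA

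Each transcript was cut into overlapping words of 31 bases, and the words found in no other gene were counted. They made up 99.2% of the words for Ugt2b1, 97.1% for Ugt2b34, 95.6% for Ugt2b35, 91.9% for Ugt2a3 and 88.0% for Ugt2b36. The Ugt3a pair had 81.1% for Ugt3a1 and 84.8% for Ugt3a2. Ugt2b37 had 65.6%, Ugt2b38 47.1% and Ugt2b5 43.6%, so counts of these 3 genes are uncertain between them. Ugt2b5 shared 44.9% of its words with Ugt2b38 and 26.4% with Ugt2b37. With 75-base words the percent in no other gene was 69.6% for Ugt2b5, 72.0% for Ugt2b38, 93.6% for Ugt2b37 and at least 98.2% for each of the other 7.

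**Figure D1:**
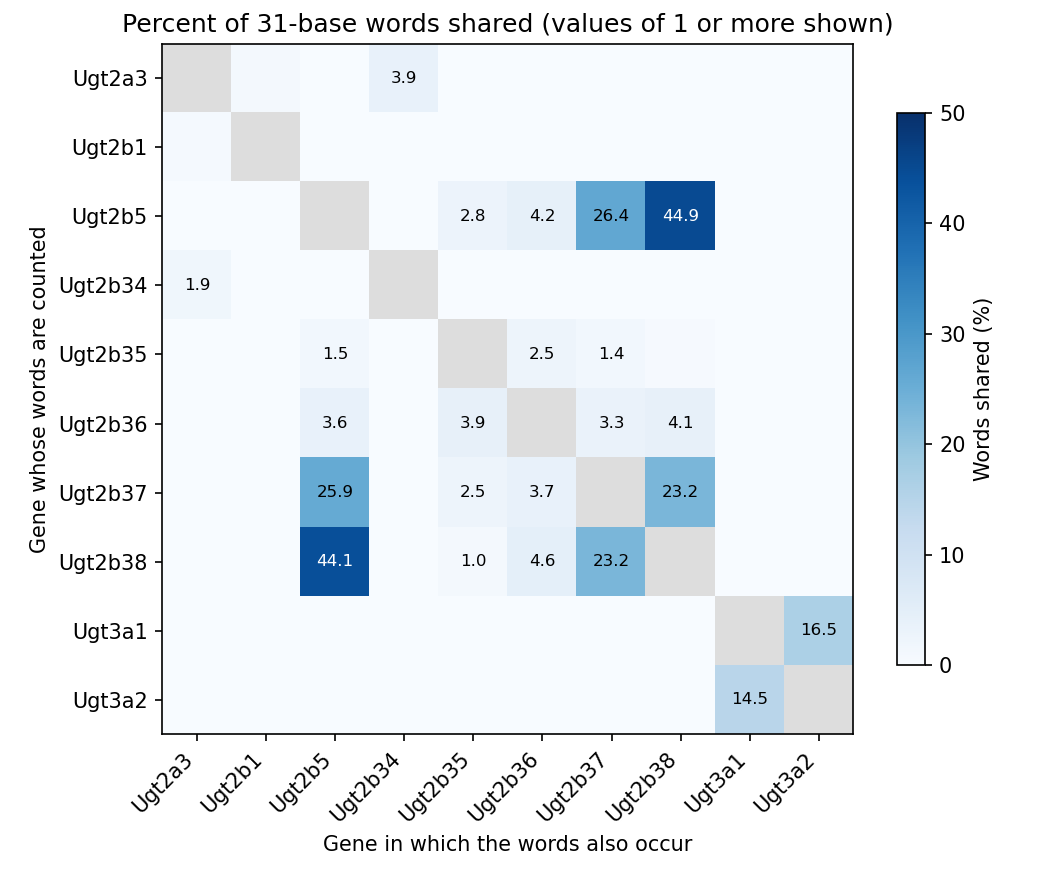
Each cell gives the percent of the 31-base words of the gene on the vertical axis that also occur in the gene on the horizontal axis, and grey marks a gene against itself. The dark block joins Ugt2b5, Ugt2b37 and Ugt2b38, with 44.9% of Ugt2b5 words also in Ugt2b38, and the Ugt3a pair stands alone with 16.5% and 14.5%.

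The 8 Ugt2 genes lie in 1 cluster on chromosome 5, in the order Ugt2b34, Ugt2b1, Ugt2b35, Ugt2b36, Ugt2b5, Ugt2b37, Ugt2a3 and Ugt2b38, with pseudogenes between them. Ugt2b35 is on the plus strand and the other 7 are on the minus strand. Ugt3a1 and Ugt3a2 are neighbours on the plus strand of chromosome 15. RefSeq promoters (GRCm38.p6) were found for 9 of the 10 members, all but Ugt3a2. Of the genes set beside the copies Ugt2b5 and Ugt2b38 here, Ugt2a3 fell much like them in tumours and Ugt2b1 fell further. Ugt2b34 and Ugt2b35 did not fall. The 100 bases before the transcription start are given for these 6 genes of the cluster. They lie at chr5:86906938-86907037 (Ugt2b34), chr5:86926504-86926603 (Ugt2b1), chr5:87140341-87140440 (Ugt2b5), chr5:87337196-87337295 (Ugt2a3) and chr5:87424204-87424303 (Ugt2b38) on the minus strand, and at chr5:87000760-87000859 (Ugt2b35) on the plus strand. Capitals mark a match to GTTANANNTTAAC.
Ugt2b34: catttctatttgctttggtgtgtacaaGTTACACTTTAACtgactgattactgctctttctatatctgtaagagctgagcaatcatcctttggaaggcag
Ugt2b1: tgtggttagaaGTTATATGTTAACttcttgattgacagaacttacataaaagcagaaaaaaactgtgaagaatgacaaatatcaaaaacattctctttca
Ugt2b35: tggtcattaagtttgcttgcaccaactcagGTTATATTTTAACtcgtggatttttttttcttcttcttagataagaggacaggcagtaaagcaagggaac
Ugt2b5: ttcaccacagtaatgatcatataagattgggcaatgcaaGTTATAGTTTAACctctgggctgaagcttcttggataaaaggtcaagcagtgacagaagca
Ugt2b38: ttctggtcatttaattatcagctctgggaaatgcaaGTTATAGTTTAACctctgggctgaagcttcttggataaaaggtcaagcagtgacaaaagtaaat
Ugt2a3: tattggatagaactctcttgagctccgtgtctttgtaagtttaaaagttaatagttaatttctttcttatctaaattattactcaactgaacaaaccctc

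The promoter stretches of Ugt2b5 and Ugt2b38 share a run of 62 bases, and those of Ugt2b34 and Ugt2b1 a run of 7. Ugt2b37, not printed, shares runs of 68 bases with Ugt2b5 and 77 with Ugt2b38. Ugt2a3 shares a run of 7 with Ugt2b5 and of 7 with Ugt2b38. The pattern GTTANANNTTAAC holds the 13 bases of the Ugt2b5 stretch that vary least among the 7 Ugt2b genes, with N where they vary. It was built from the members' own promoters, so its matches are a description only. Searched on both strands, it was in 8 of the 9 members, all 7 Ugt2b genes and Ugt3a1, and in 0.0913% of the 32851 promoters of the table. In the Ugt2b genes it began 61 to 89 bases before the start. Whether promoter sequence bears on the RNA levels was not tested.

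Between 39723997 and 62178752 reads per library were counted in genes. Levels are given as CPM, counts relative to the library's total in genes after TMM scaling between libraries. A gene was called when edgeR's quasi-likelihood test, fitted on all 6 libraries, gave a Benjamini-Hochberg adjusted p under 0.05 over the 17558 genes tested, and all 10 members were among these. Trim28 had 32.5 and 35.9 CPM in the controls, against 5.06 and 6.02 in the KAP1-deleted livers and 5.22 and 4.59 in the tumours, so it was low in every library labelled as deleted. The summed level of 6 hepatocyte markers was 69507 to 87064 CPM in the 4 livers and 22257 and 40893 CPM in the tumours. Most of that sum was Alb alone, at 53805 to 74525 CPM in the livers and 18162 and 34887 in tumours. Alb was not called in tumours (adjusted p = 0.126 against KAP1-deleted liver and 0.0796 against control liver). Of the 6 markers, 2 were called lower in tumours against either liver group. Kupffer cell and macrophage markers summed to 270.4 to 289.1 CPM in the livers and 121 and 141 in tumours. Of these 5 markers, 2 were called lower in tumours against KAP1-deleted liver and 3 against control liver. Lymphocyte markers summed to 28.3 to 35.7 CPM in the livers and 30.97 and 64.1 in tumours, with 1 called higher against control liver, and the endothelial and stellate cell lists each had 1 marker called lower. In bulk tissue, fewer cells of a type and less RNA per cell cannot be told apart. No marker of the cell types followed was at 0 in every library, and the part of cell make-up in the results was not tested.

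Deleting Kap1 in hepatocytes moved no member past the test. Of the 10 genes, 0 were called, against 0.336% of all genes tested. DESeq2 and limma-voom also called 0 of the 10, where they called 1.31% and 0.154% of all genes. The edgeR test gave an unadjusted p under 0.05 for 2 members, Ugt3a1 and Ugt3a2. The median log2 fold change of the 10 members between KAP1-deleted and control liver was -0.05, beside 0.0032 for all genes tested.

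The Ugt3a pair held the largest differences of the members in that comparison. The controls had 150 and 164 CPM of Ugt3a1, against 76.9 and 113 in the deleted livers. Of Ugt3a2 they had 454 and 456, against 218 and 321 CPM. Both genes were lower in both KAP1-deleted livers than in either control, and in both the lower value was in KAP1-deleted liver 1. The log2 fold change was -0.72 ± 0.22 (SE) for Ugt3a1, with an adjusted p of 0.486, and -0.76 ± 0.24 for Ugt3a2, with an adjusted p of 0.567. Counts of Ugt3a2 stood at 3.02 and 2.78 times those of Ugt3a1 in control livers and at 2.83 times in both KAP1-deleted livers. Some words are common to the pair, so part of each count could belong to the other gene. Of the remaining members, Ugt2b37 did not overlap on the higher side and Ugt2b5 did not on the lower side. That made 1 member higher and 3 lower in both KAP1-deleted libraries than in both controls, beside 16.7% and 14.6% of all genes tested.

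Tumours held less RNA of 5 members and, against control liver, more of 1. Ugt2a3, Ugt2b1, Ugt2b5, Ugt2b38 and Ugt3a1 were called lower against both liver groups, and Ugt2b34 was called higher against control liver. Ugt2b5 and Ugt2b38 are near copies whose counts are uncertain between them, so their calls may not be separate. Against KAP1-deleted liver 5 of 10 were lower and 0 higher, where 6.64% of all genes tested were called lower and 4.8% higher. Against control liver 5 of 10 were lower and 1 higher, where 7.76% and 6.15% of all genes were. The members' median log2 fold change was -0.61 against KAP1-deleted liver (all genes -0.03) and -0.96 against control liver (all genes -0.02). Both tumours lay below both KAP1-deleted livers for 6 members and above them for 2, beside 34.8% and 28.7% of all genes tested. Against the controls this held for 6 and 3 members, beside 29.9% and 26.5%. Both comparisons use the same 2 tumour libraries. With library totals and no scaling factor, added after seeing the data, the 6 genes kept their directions, but Ugt2b5 was not called in either comparison (adjusted p = 0.161 and 0.0707) nor Ugt2a3 against KAP1-deleted liver (0.0521). That scaling also called Ugt2b34 (0.011) and Ugt2b35 (0.0173) higher against KAP1-deleted liver and Ugt2b35 (0.0115) and Ugt2b37 (0.0181) higher against control liver. DESeq2 called Ugt2b35 higher against both liver groups (0.0448 and 0.00772) and Ugt3a2 lower against control liver (0.0329).

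**Figure D2:**
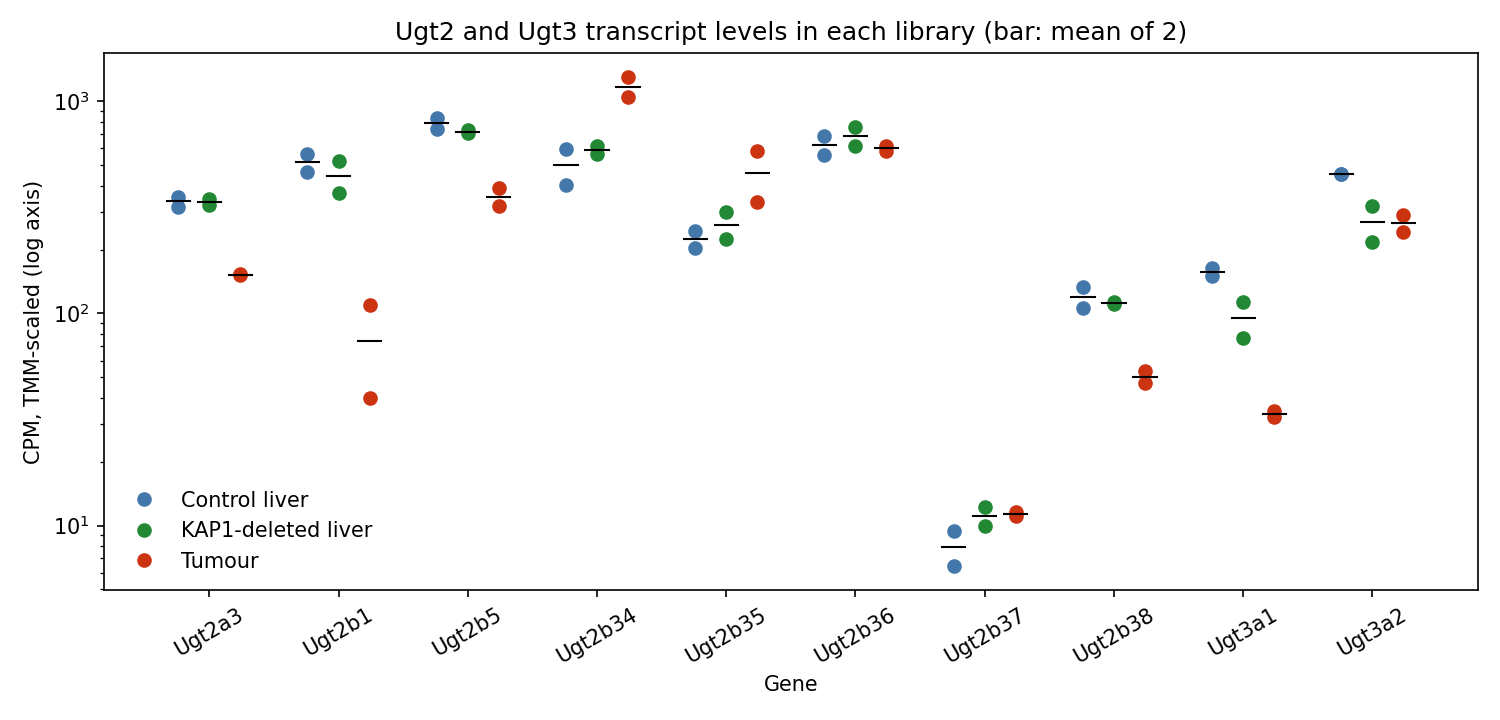
Each point is the TMM-scaled CPM of 1 gene in 1 library on a log axis, coloured by group, and each short bar is the mean of the 2 libraries of a group. Tumour points lie below all liver points for Ugt2a3, Ugt2b1, Ugt2b5, Ugt2b38 and Ugt3a1 and above them for Ugt2b34 and Ugt2b35, for example 1298 and 1044 CPM of Ugt2b34 against at most 618 in the livers.

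Ugt2b1, whose sequence is almost unshared, fell furthest. The controls had 568 and 463 CPM, the KAP1-deleted livers 369 and 522, and the tumours 39.8 and 109. All 4 livers lay above both tumours, and the tumours differed from each other 2.75-fold. The log2 fold change was -2.79 ± 0.47 (SE) against control liver, with an adjusted p of 0.0112, and -2.58 ± 0.47 against KAP1-deleted liver, with an adjusted p of 0.017. The call against control liver was lost without control liver 1 (adjusted p = 0.0836) or control liver 2 (0.0967). The call against KAP1-deleted liver was lost without either control liver (0.0688 and 0.0709) or KAP1-deleted liver 2 (0.0879), and with only the 2 groups compared (0.0649). Without tumour 2 the log2 fold changes were -3.70 and -3.50 against control and KAP1-deleted liver, and without tumour 1 they were -2.24 and -2.03.

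Ugt3a1 was lowest in tumours, at 34.8 and 32.7 CPM. Both values were below the KAP1-deleted livers, which were themselves below the controls. The log2 fold change was -2.22 ± 0.23 (SE) against control liver, with an adjusted p of 0.00139, and this call was kept without each library in turn. Against KAP1-deleted liver it was -1.50 ± 0.22 with an adjusted p of 0.00728, lost only without tumour 1 (0.0519). Its neighbour Ugt3a2 did not follow. Ugt3a2 was at 292 and 243 CPM in tumours, between the values of 218 and 321 CPM in KAP1-deleted livers. Its log2 fold change was -0.01 ± 0.24 against KAP1-deleted liver (adjusted p = 0.985) and -0.76 ± 0.24 against control liver (adjusted p = 0.0765). Counts of Ugt3a2 were 8.40 and 7.45 times those of Ugt3a1 in tumours. That ratio was above 3.02 in no liver, and its difference between groups was not tested.

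Ugt2a3 and the pair Ugt2b5 and Ugt2b38 each fell to less than the level of any liver. Of Ugt2a3, a gene of the other Ugt2 subfamily, controls held 356 and 319 CPM, KAP1-deleted livers 348 and 324, and tumours 152 and 153. The controls had 838 and 739 CPM of Ugt2b5, the KAP1-deleted livers 707 and 730, and the tumours 390 and 321. For Ugt2b38 these were 133 and 106, then 113 and 110, then 53.8 and 47.0 CPM. In all 3 genes both tumours lay below all 4 livers, and the liver groups overlapped for Ugt2a3 and Ugt2b38 but not for Ugt2b5. Against control liver the log2 fold changes were -1.15 ± 0.19 (SE) for Ugt2a3 (adjusted p = 0.00854), -1.15 ± 0.22 for Ugt2b5 (0.0158) and -1.25 ± 0.19 for Ugt2b38 (0.00603). Against KAP1-deleted liver they were -1.14 ± 0.19 (0.0106), -1.02 ± 0.22 (0.0276) and -1.15 ± 0.19 (0.0102).

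Ugt2b38 counts were 13.8% to 16.0% of Ugt2b5 counts in all 6 libraries. Since these are the most alike sequences of the family, how much of the Ugt2b38 count comes from Ugt2b5 RNA was not tested. Ugt2b5, Ugt2b37 and Ugt2b38 together had 980 and 852 CPM in the controls, 830 and 852 in the deleted livers and 455 and 379 in the tumours. The log2 ratio of the mean sums was -1.13 for tumour against control liver and -1.01 against KAP1-deleted liver. Ugt2b5 held most of the sum in every library, so the sum had to move like Ugt2b5 and does not test how reads were placed.

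The Ugt2b38 call against control liver was kept without each library in turn. Against control liver, the Ugt2a3 call was lost without tumour 1 (adjusted p = 0.0546) and the Ugt2b5 call without tumour 1 (0.0503) or tumour 2 (0.0825). Against KAP1-deleted liver, the Ugt2a3 call was lost without any 1 of the 4 libraries compared (0.0503 to 0.0658), as was the Ugt2b5 call (0.0757 to 0.165), and the Ugt2b38 call was lost without tumour 1 (0.0514) or tumour 2 (0.0599).

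Ugt2b34 went the other way. The controls had 402 and 599 CPM, the KAP1-deleted livers 564 and 618, and the tumours 1298 and 1044. Both tumours lay above all 4 livers, and control liver 1 lay below the other 3. The log2 fold change against control liver was 1.23 ± 0.27 (SE), with an adjusted p of 0.0251. That call was lost without control liver 1 (0.0642), tumour 1 (0.111) or tumour 2 (0.0549). Against KAP1-deleted liver it was 0.99 ± 0.27 with an adjusted p of 0.0547. With the mouse as a block, which pairs each tumour with the liver of its mouse, the adjusted p was 0.00743. The block fit called 4476 genes, where the fit reported called 2007, and it rests on 1 residual degree of freedom.

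The controls had 246 and 205 CPM of Ugt2b35, the KAP1-deleted livers 301 and 224, and the tumours 583 and 336. Both tumours were above all livers, tumour 1 more so. The log2 fold change did not pass the test: it was 1.03 ± 0.30 (SE) against control liver, with an adjusted p of 0.06, and 0.81 ± 0.30 against KAP1-deleted liver, with an adjusted p of 0.122. With the mouse as a block the latter p was 0.0117. That block fit rests on 1 residual degree of freedom.

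The controls had 561 and 689 CPM of Ugt2b36, the KAP1-deleted livers 618 and 757, and the tumours 584 and 617. The tumours lay inside the control range, and the log2 fold change of tumour against control liver was -0.06 ± 0.23 (SE), with an adjusted p of 0.895. Ugt2b37 was by far the lowest member, with 9.47 and 6.45 CPM, then 9.95 and 12.3, then 11.1 and 11.6. Its counts were 0.873% to 1.68% of those of Ugt2b5 in the livers and 2.85% and 3.61% in tumours, and it shares 25.9% of its words with Ugt2b5. Its log2 fold change against control liver was 0.52 ± 0.23, with an adjusted p of 0.184.

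**Figure D3:**
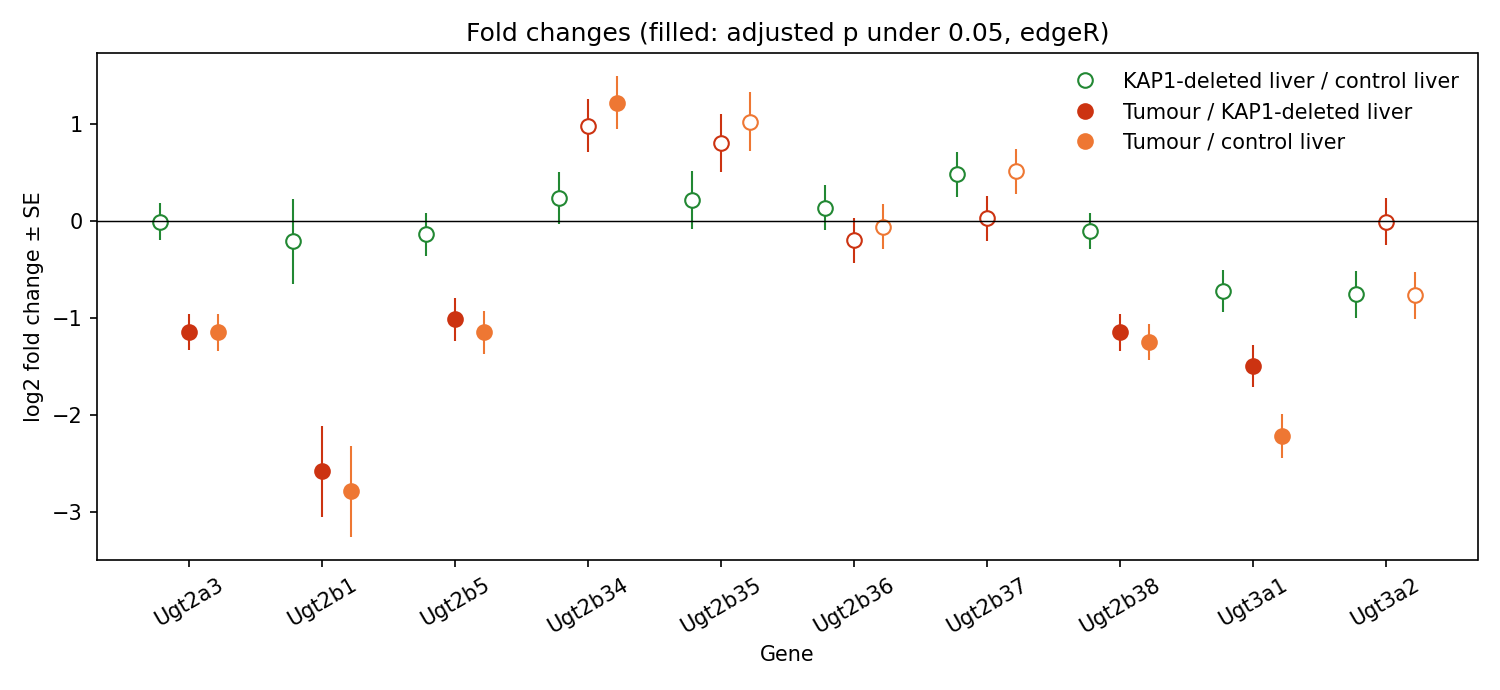
Points are log2 fold changes of each member in the 3 comparisons with their standard errors, filled where the edgeR adjusted p is under 0.05. The green points, KAP1-deleted against control liver, are all open, and filled points of the tumour comparisons run from -2.79 for Ugt2b1 to 1.23 for Ugt2b34.

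Within each mouse the tumour and liver could be set side by side. The log2 ratio of tumour to liver CPM in mice 1 and 2 was -3.21 and -2.26 for Ugt2b1, -1.14 and -1.80 for Ugt3a1, -1.20 and -1.09 for Ugt2a3, -0.86 and -1.19 for Ugt2b5, and -1.07 and -1.23 for Ugt2b38. It was 1.20 and 0.76 for Ugt2b34, 0.95 and 0.59 for Ugt2b35 and -0.08 and -0.30 for Ugt2b36. These 8 genes had 1 sign in both mice, while Ugt3a2 was 0.43 in mouse 1 and -0.40 in mouse 2, and Ugt2b37 was 0.16 and -0.09.

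The direction of the Ugt2 total depended on the scale. The TMM-scaled sum over the 8 Ugt2 genes was 3112 and 3127 CPM in the controls, 3031 and 3297 in the deleted livers and 3111 and 2638 in the tumours. The mean was 3120 ± 10.2 (SD, n = 2) in control livers and 2874 ± 334 (SD, n = 2) in tumours, a difference smaller than the spread between the tumours. Per kilobase of exon the sums were 1354 and 1323 in the controls, 1274 and 1391 in the deleted livers and 1089 and 959.8 in the tumours, so both tumours were lower. The exon unions used were longest for Ugt2b34 (4312 bases) and Ugt2b35 (3359), and 1858 to 2573 bases for the other Ugt2 genes. Dividing by them gives less weight to Ugt2b34 and Ugt2b35, so this sum depends on those gene models. Over library totals with no scaling factor the sums were 2714 and 2962, then 2618 and 2896, then 4073 and 3209 CPM, so both tumours were higher. The other scales were added after seeing the data, and none of these sums was tested.

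The make-up of the per-kilobase sum differed between tumours and livers. Ugt2b5 gave the largest share of it in control livers, 33.3% and 30.1%, and 19.3% and 18.0% in tumours. Ugt2b1 gave 16.3% and 13.6% in the controls, 11.3% and 14.6% in the deleted livers and 1.42% and 4.42% in the tumours. Ugt2b34 gave 6.89% and 10.5%, then 10.3% in both KAP1-deleted livers, then 27.6% and 25.2%. Ugt2b35 gave 4.61% to 7.04% in the livers and 15.9% and 10.4% in tumours. These shares do not depend on the scaling between libraries, but they do depend on the exon lengths used.

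**Figure D4:**
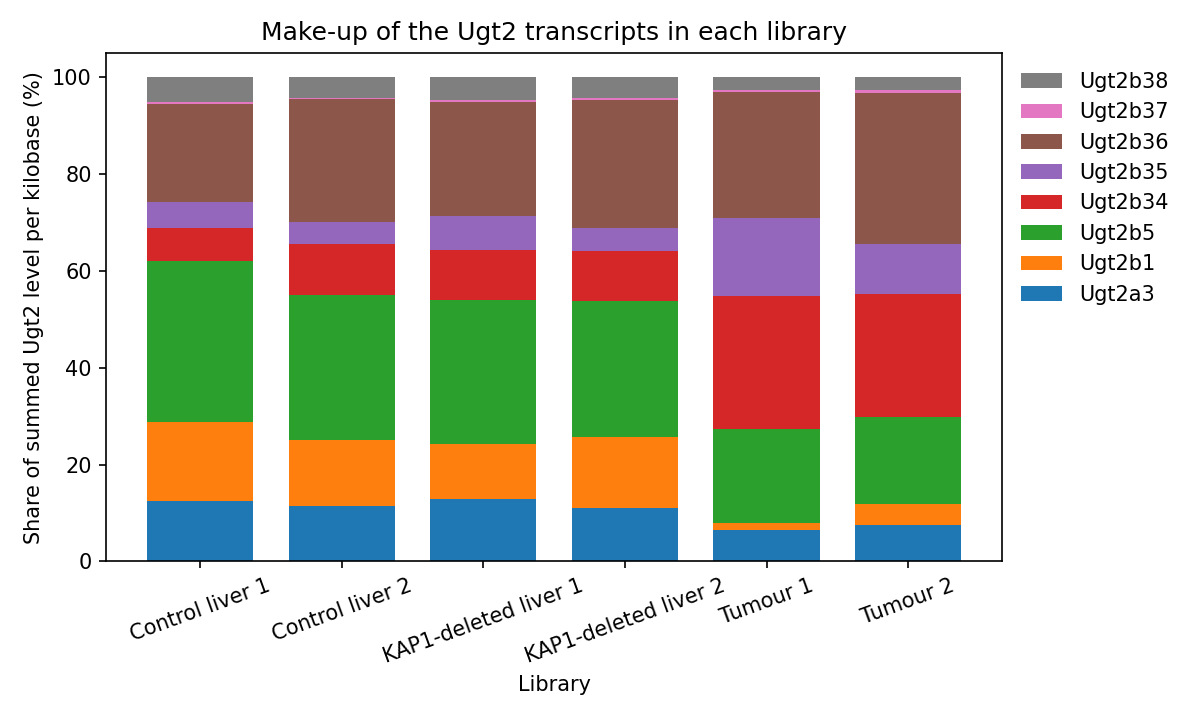
Each bar splits the summed CPM per kilobase of the 8 Ugt2 genes in 1 library into the percent given by each gene. The 4 liver bars look alike, while in both tumours the Ugt2b34 share is 25.2% or more and the Ugt2b1 share 4.42% or less.

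By level per kilobase, the order in control livers ran from Ugt2b5 (451 and 398 CPM per kilobase) through Ugt2b36 (272 and 335), Ugt2b1 (221 and 180), Ugt2a3 (168 and 151), Ugt3a2 (146 and 147), Ugt2b34 (93.3 and 139), Ugt2b35 (73.2 and 60.9), Ugt2b38 (70.4 and 56.3) and Ugt3a1 (56.2 and 61.4) to Ugt2b37 (mean 4.20). Neighbours in that order did not overlap, except Ugt2b35 with Ugt2b38 and Ugt2b38 with Ugt3a1. In KAP1-deleted livers Ugt2b34 and Ugt3a2 changed places, and there Ugt2b1 overlapped Ugt2a3 and Ugt3a2 overlapped Ugt2b35. In tumours the order began with Ugt2b36 (283 and 299) and Ugt2b34 (301 and 242), which overlapped, followed by Ugt2b5 (210 and 173) and Ugt2b35 (174 and 100), which overlapped too. Ugt2b1 moved from rank 3 in both liver groups to rank 7 in tumours, where it overlapped Ugt2b38.

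Some neighbours in the cluster went opposite ways and others moved alike. Ugt2b1 fell in tumours, and it lies between Ugt2b34, which rose against control liver, and Ugt2b35, which was higher without passing the test. At the other end, the neighbours Ugt2a3 and Ugt2b38 both fell, while Ugt2b37, next to Ugt2a3, was not called.

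**Figure D5:**
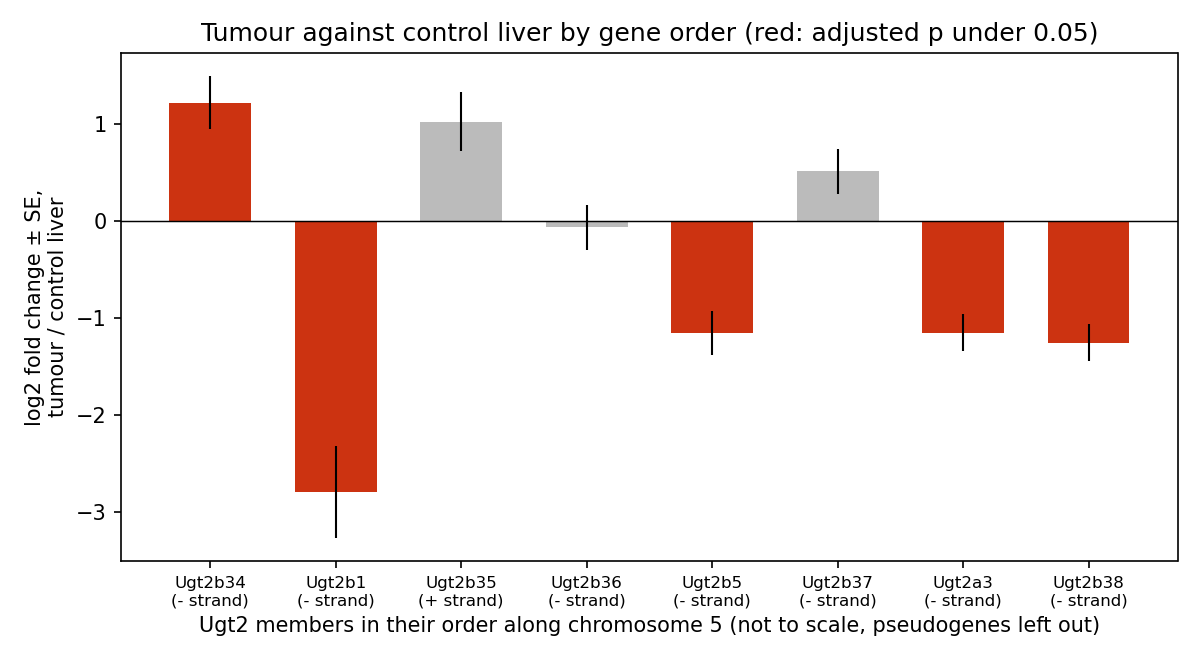
Bars are log2 fold changes of tumour against control liver with standard errors for the 8 Ugt2 genes in their order along chromosome 5, red where the edgeR adjusted p is under 0.05. The values run from 1.23 for Ugt2b34 to -2.79 for its neighbour Ugt2b1 and back to 1.03 for Ugt2b35.

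Ugt2b34 had the highest mean CPM of the members over the 6 libraries, although its mean was below those of Ugt2b5 and Ugt2b36 in both liver groups and above them only in tumours. Among 6856 other genes with a mean of at least 10 CPM, the 5 with the profile most like it were Dab2ip, Xpr1, Tmem176b, Prdx3 and Igf2r, with root mean square differences of 0.08, 0.09, 0.11, 0.12 and 0.12 between centred log2 profiles over the 6 libraries. Xpr1, for example, was at 33.1 to 45.2 CPM in the livers and 88.4 and 74.1 in tumours. Among the members, the pairs most alike by the same measure were Ugt2b5 with Ugt2b38 (0.07) and Ugt2a3 with Ugt2b38 (0.09), and the second of these shares only 65.4% coding identity.

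Other genes of glucuronidation were followed as lists. Of the 9 tested Ugt1 genes, which share their last exons so that reads there cannot be given to 1 of them, 0 were called in KAP1-deleted liver. Of all genes tested, 0.336% were called in that group against control liver. Against control liver, tumours had 1 Ugt1 gene called lower, beside 7.76% of all genes tested. This gene, Ugt1a8, was near the floor at 1.67 and 1.34 CPM in controls and 0.39 and 0.65 in tumours. The KAP1-deleted livers were as low, at 0.43 and 0.36 CPM. Its log2 fold change against control liver was -1.55 ± 0.38 (SE) in tumours (adjusted p = 0.0345) and -1.92 ± 0.40 in KAP1-deleted liver (0.159). How far this call depends on single libraries is not given. Ugt2a2 was not called, with an adjusted p of 0.411 or above in all 3 comparisons. The median log2 fold change of the Ugt1 list was -0.04 in tumour against control liver. It was -0.66 in KAP1-deleted against control liver and 0.46 in tumour against KAP1-deleted liver.

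A list of 6 genes covered the supply of UDP-glucuronate and, with Nudt14, the breakdown of UDP-sugars. Of these, 3 were called lower in tumours against KAP1-deleted liver and 3, Nudt14 among them, against control liver. None of the list, 0 of 6, was called higher. Over all genes tested, 6.64% and 7.76% were called lower and 4.8% and 6.15% higher. Of Ugdh, which oxidises UDP-glucose to UDP-glucuronate, controls held 91.1 and 125 CPM, KAP1-deleted livers 122 and 134, and tumours 42.8 and 38.8. Its log2 fold change was -1.41 ± 0.21 (SE) against control liver (adjusted p = 0.00559) and -1.65 ± 0.21 against KAP1-deleted liver (0.00416), called without each library in turn. Pgm1, a phosphoglucomutase, was called in both, Ugp2, which makes UDP-glucose, against KAP1-deleted liver alone, and Nudt14, a UDP-sugar hydrolase named after its values were seen, against control liver alone. The Pgm1 and Ugp2 calls against KAP1-deleted liver were lost without any 1 of the 4 libraries compared (adjusted p of 0.0736 to 0.153 and 0.0681 to 0.184). The Pgm1 call against control liver was lost without control liver 2 (0.0808), tumour 1 (0.0893) or tumour 2 (0.139), and the Nudt14 call without any library but control liver 1 (0.0842 to 0.181). With library totals and no scaling factor these were not called either (Pgm1 0.21 against KAP1-deleted and 0.142 against control liver, Ugp2 0.133, Nudt14 0.267). Nudt14 also missed the threshold with DESeq2 size factors (0.05), upper-quartile scaling (0.051) and only the 2 groups compared (0.0897). The other 2 genes of the list had higher values in tumours without passing the test. Entpd5 had a log2 fold change of 1.08 ± 0.32 against control liver (adjusted p = 0.0598) and 0.94 ± 0.32 against KAP1-deleted liver (0.0944), and Slc35d1 had 0.71 ± 0.28 (0.139) and 0.37 ± 0.28 (0.423). The list's median was -0.85 against KAP1-deleted liver and -0.73 against control liver.

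Of the 6 transporters of glucuronides, Abcc2 and Abcc4 were called higher in tumours against both liver groups. Over all genes tested, 4.8% were called higher and 6.64% lower against KAP1-deleted liver, and 6.15% and 7.76% against control liver. Abcc2, the export pump to bile, was at 734 and 595 CPM in control livers and 1521 and 1291 in tumours, with a log2 fold change of 1.08 ± 0.24 (SE) and an adjusted p of 0.0248. Abcc4, an export pump to blood, was at 2.57 and 3.07 CPM in control livers and 67.3 and 20.6 in tumours. Its log2 fold change was 3.96 ± 0.58, with an adjusted p of 0.0101. Against control liver Slco1a1, an uptake carrier, and Abcc3, an export pump named after its values were seen, were lower. Their log2 fold changes were -2.33 ± 0.47 (0.0218) and -3.52 ± 0.74 (0.0364). Of Slco1a1, KAP1-deleted livers already held less than controls, 152 and 244 CPM beside 799 and 352, without a call (0.523). Slco1b2, an uptake carrier also named after its values were seen, had 2965 and 2605 CPM in controls but 5359 and 5300 in tumours. The values of the KAP1-deleted livers, 4143 and 3763, lay between. Slco1b2 was not called against control liver (0.94 ± 0.27, adjusted p = 0.0568) or KAP1-deleted liver (0.43 ± 0.27, 0.328). Ces1e was lower in tumours against both groups, by -2.05 ± 0.39 against control liver (0.0157), and Gusb, which removes glucuronic acid, was not called. Against control liver, these calls were lost without control liver 2 or tumour 1 for Ces1e (up to 0.0825), control liver 1 or tumour 1 for Slco1a1 (up to 0.101), and either control or KAP1-deleted liver for Abcc4 (up to 0.181). The Abcc2 call was kept only without control liver 1 and otherwise reached 0.0991, and the Abcc3 call only without tumour 2 and otherwise reached 0.247. Against KAP1-deleted liver, Abcc2 was lost without either KAP1-deleted liver or tumour 1 (up to 0.163), Abcc4 without any 1 liver (up to 0.228), with the mouse as a block (0.26) or with only the 2 groups compared (0.0907), and Ces1e without KAP1-deleted liver 2 or tumour 1 (up to 0.0745). With only the 2 groups compared, Abcc2 (0.0589) and Abcc3 (0.0627) were not called against control liver. The log2 fold change of Abcc4 ran from 2.86 without tumour 1 to 4.56 without tumour 2 against control liver, and from 2.15 to 3.85 against KAP1-deleted liver. Against control liver Slco1a1 was at -1.63 without control liver 1, and Abcc3 at -2.91 without control liver 2 and -4.46 without tumour 2.

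Among regulators known to act on Ugt genes, Ahr, the dioxin receptor, was called higher in tumours against both groups. Ahr was at 70.5 and 56.6 CPM in control livers and 174 and 120 in tumours, with a log2 fold change of 1.21 ± 0.23 (SE) and an adjusted p of 0.0146. Against control liver, Nr1h4, the bile acid receptor, and Rxra, its partner, were lower, at -0.82 ± 0.17 (0.0216) and -0.92 ± 0.22 (0.0312). Against control liver the Ahr call was lost without control liver 2 (0.0508) or tumour 1 (0.0773), the Nr1h4 call without tumour 1 (0.0755) or tumour 2 (0.111), and the Rxra call without control liver 2, tumour 1 or tumour 2 (up to 0.151). Against KAP1-deleted liver the Ahr call was lost without KAP1-deleted liver 2 (0.0639) or tumour 1 (0.0608). With library totals and no scaling factor, Nr1h4 (0.216) and Rxra (0.194) were not called. Hnf4a, Nr1i2, Nr1i3, Ppara and Nfe2l2 were not called in any of the 3 comparisons. Against control liver 6.15% of all genes tested were called higher in tumours and 7.76% lower, and 4.8% were called higher against KAP1-deleted liver. In KAP1-deleted liver 0 genes of the 6 lists were called, beside 0.336% of all genes tested. At so low a share, 0 calls in short lists say little.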

How the data were processed

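RNA of 6 libraries from 4 mice was analysed, 2 per group. The authors deposited whole-number read counts per Ensembl gene, made with TopHat and HTSeq 0.6.1 on mm9 per the submitters' processing notes. The sources used here do not give the annotation, strand setting, read length or filters, so antisense and overlapping genes are uncertain. The kit is stranded per the labels' protocols, whose extraction text speaks of cell lines although all samples are labelled tissue. All libraries carry 1 batch label. Rows that name no gene entered neither library sizes nor tests: reads in no gene were 18.0% to 35.0% of all counted reads and ambiguous ones 1.73% to 2.87%. The row for reads with several alignments is 0 in every library, so how reads of near copies were placed is unknown.

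The main test was edgeR 4.0.16 (R 4.3.3): filterByExpr (minimum count 10, minimum total 15), TMM (factors 0.864 to 0.948 in livers, 1.31 and 1.22 in tumours), 1 mean per group and a robust quasi-likelihood fit with 3 residual degrees of freedom, two-sided, with Benjamini-Hochberg adjustment. Shares per kilobase used the exon union of GENCODE M21 (GRCm38). Replicate counts differed beyond sampling noise (chi-square over degrees of freedom 84.3 to 328). Whether control mice were littermates of the others is not stated, so p-values cover only the spread among these libraries. Tumour and liver of 1 mouse pair by mouse code, and their deviations correlated across genes with r = 0.185. Alternatives were DESeq2 1.42.0, limma-voom (limma 3.58.1), other scalings and filters, fewer samples and blocks. A regulator of the lists is not reported here. Members and lists were chosen with earlier results of these data known. Named genes were the members, Trim28, Alb, the 5 genes most like Ugt2b34 and up to 3 per list with the smallest adjusted p. Nudt14, Abcc3 and Slco1b2 were named after their values were seen.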

Additional observations from a re-analysis of the deposited data

How the results depend on the processing

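With 2 libraries per group, calls near the threshold depend on single libraries. Leaving out each library in turn, 0 members were called in KAP1-deleted against control liver, 1 to 5 in tumour against KAP1-deleted liver and 3 to 6 in tumour against control liver, where only the fall of Ugt3a1 and Ugt2b38 was called every time. Without tumour 1 the members called were 1 and 3 in the 2 tumour comparisons, and over all genes the calls ranged from 30 to 75, 640 to 2715 and 1103 to 2621. Over members and settings, 413 values kept direction and side of the threshold, 26 lost the call, 25 gained it and 26 changed sign, each of the last in a member not called. For Ugt3a2 in tumour against KAP1-deleted liver the log2 fold change was 0.041 with DESeq2 size factors and with the DESeq2 test, 0.087 with upper-quartile scaling, 0.047 with a mean CPM of at least 5, 0.011 with limma-voom, 0.027 with only the 2 groups compared, and from -0.28 to 0.29 without 1 library. Ugt2b36 against control liver was 0.022 with upper-quartile scaling and -0.22 to 0.10 without 1 library. Without 1 library Ugt2b37 ran from -0.13 to 0.18 in tumour against KAP1-deleted liver, and in KAP1-deleted against control liver Ugt2a3 ran from -0.10 to 0.075, Ugt2b1 from -0.48 to 0.023, Ugt2b34 from -0.023 to 0.53, Ugt2b35 from -0.0068 to 0.42, Ugt2b36 from -0.017 to 0.28 and Ugt2b38 from -0.27 to 0.065. The cause of these changes was not tested.

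Over all genes, 59 were called in KAP1-deleted against control liver, and 571 with no low-count filter, 17 with a mean CPM of at least 5, 230 with DESeq2, 27 with limma-voom and 20 with only the 2 groups compared. In tumour against KAP1-deleted liver 2007 were called, and 3819 with no filter and 1228 with the stricter one. In tumour against control liver 2443 were called, and 4115 and 1432. With library totals and no scaling factor, chosen after seeing the data, the median of all genes shifted by 0.54 and 0.47 in the 2 tumour comparisons and 4837 and 4588 genes were called. The share of calls that were higher went from 42.0% and 44.2% to 89.2% and 86.4% (upper-quartile scaling: 52.0% and 51.9%). With that shift Ugt2b36 was at 0.34 and 0.41, Ugt3a2 at 0.53 and Trim28 at 0.36 against KAP1-deleted liver, the falls of Ugt2b5 (adjusted p = 0.161 and 0.0707) and, against KAP1-deleted liver, of Ugt2a3 (0.0521) were not called, and less the shift Ugt2b5 was at -1.01 and -1.14. Ugt2b34 against KAP1-deleted liver, not called in the fit reported, was called under 12 of 17 alternatives. These refit the same libraries, so they are not independent of each other. The call was absent without any 1 library of the groups compared. Without 1 library the log2 fold change of Ugt2b34 there ran from 0.82 to 1.12.

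A replicate block by mouse, possible for tumour against KAP1-deleted liver, called 4476 genes and put Ugt3a2 at 0.052. A replicate block by code series, where libraries of different mice share only a number, called 97 genes in KAP1-deleted against control liver and put Ugt3a2 at 0.0057 in tumour against KAP1-deleted liver. It also called Ugt2b35 in tumour against control liver (adjusted p = 0.0197). Deviations of libraries of 1 code series correlated with r = 0.386 for the livers and 0.0854 for tumour and control liver. Summing the near copies Ugt2b5, Ugt2b37 and Ugt2b38 moved the log2 ratio of Ugt2b5 by less than the spread between replicates in all 3 comparisons. Since Ugt2b5 held most of that sum, this does not test how reads were placed.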
